A study of Mus musculus with 12 samples.

Results

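Cultured mouse colonic epithelium, labelled as confluent monolayers at day 3, was compared with freshly isolated colonic crypts by RNA sequencing. The comparison used 6 of the 12 libraries of the series, 3 per group. Both groups came from wild-type mouse colon, with an age of 6 to 10 weeks given in the labels and no strain, sex, genetic change or drug named. Per the labels, crypt cells of a mouse were first grown as monolayers on collagen, then replated on a scaffold whose cross-linking is graded, and became contiguous within 3 to 5 days. The monolayers had thus been through a culture step on collagen that the crypts had not. The labels give the day 3 monolayers a transepithelial electrical resistance of 526 ± 56 ohm cm2, against 623 ± 15 at day 4 and 407 ± 53 at day 5, with the kind of error not named. Day 4 and day 5 monolayers, with 3 libraries each, served as the comparison for what belongs to the early monolayer. No source used here tells if replicate libraries stand for different mice, different cultures or repeat preparations, and p-values therefore reflect the spread between libraries alone, which may be technical.

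A colonic crypt is a pit of epithelium in which stem cells and dividing progenitors at the base supply non-dividing cells above. Those are absorptive colonocytes, which take up water and salt, mucus-making goblet cells, hormone-secreting enteroendocrine cells and chemosensory tuft cells. A dividing cell passes through G1, in which growth signals raise cyclin D and MYC, through S phase, in which DNA and histones are made, and through G2 and mitosis, in which the spindle and kinetochore genes peak. After injury, colonic epithelium is known to leave this pattern for a while: cells spread over the wound, switch on targets of the coactivator YAP and genes of fetal gut, and later return to lineage genes.

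All levels below are in CPM, gene counts scaled to a common library size with edgeR's TMM factors, and changes are log2 fold changes of day 3 minus the other group, ± SE. Groups are given as 3 values in the order of their replicate numbers, or as mean ± SD with n = 3. A gene is called where the edgeR quasi-likelihood test gave an adjusted p under 0.05 over the 12863 genes tested. Gene counts came to between 4518314 and 9939045 per crypt library and between 10237459 and 14290393 per day 3 library, so that 3 counts stand for 0.215 to 0.601 CPM. Libraries correlated across genes at r of 0.983 to 0.99 within day 3, 0.949 to 0.957 within crypts and 0.72 to 0.735 between them. Of the epithelial markers, Epcam was at 1708 ± 204 CPM in crypts and 1010.4 ± 21.5 at day 3, Cdh1 at 1458 ± 129.7 and 1483 ± 44.7, and Krt8 at 3172 ± 87 and 4465 ± 190. Leukocyte markers summed to 46.5, 79.1 and 33.9 CPM in crypts and 4.29, 3.16 and 5.15 at day 3, and mesenchymal markers to 60.1, 127 and 27.5 and 1.8, 5.45 and 4.39, so crypts replicate 2 carried the most of both. Of the 24 leukocyte markers in the files 11 had no count at day 3, Cd3g and Cd8a among them, and of the 20 mesenchymal markers 6, with Col3a1 and Dcn among them. The share of gene counts taken by the nuclear RNA Malat1 was 2.02 to 2.34% in crypts and 5.65 to 5.98% at day 3, and reads in no gene were 45.6 to 49% and 38.8 to 40.4% of the reads counted. Rn45s, the ribosomal RNA precursor, looked at after its values were seen, was at 55758, 70709 and 36576 CPM in crypts and 90591, 92271 and 90850 at day 3. The part that these differences play in the results below was not tested.

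Most of the genes tested differed between crypts and day 3. Of 12863 genes, 3655 were called higher at day 3 (28.4%) and 3590 lower (27.9%), with a median of all genes of -0.03. Those at least 2-fold apart numbered 1882 higher and 2222 lower, and those at least 16-fold apart 441 and 617. Among the largest gains and losses were genes without a single count in one of the groups. Scaling by library totals in place of TMM moved the median of all genes to -0.20 and the counts to 2919 higher and 4402 lower, so small changes are to be read relative to the bulk of genes. In bulk RNA, fewer cells of a type and less RNA per cell cannot be told apart.

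**Figure D1:**
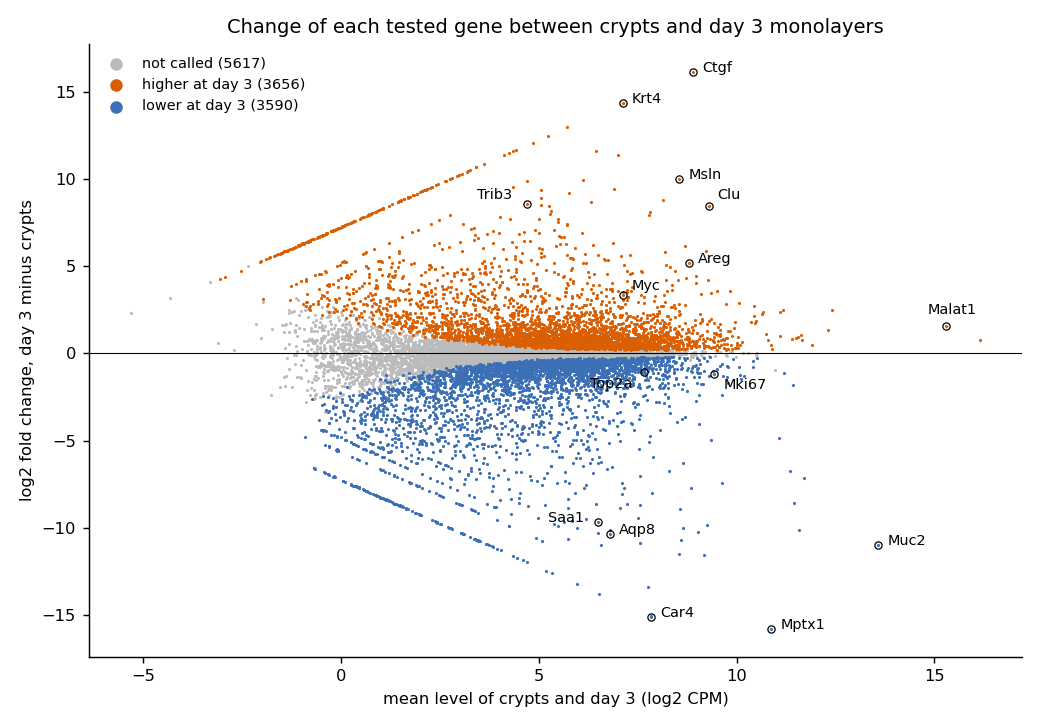
Each point is 1 tested gene, with its mean level in crypts and day 3 on the x axis (log2 CPM) and the log2 fold change of day 3 minus crypts on the y axis. Orange points were called higher at day 3 and blue ones lower by edgeR, grey ones were not called, circles mark named genes, and the slanted lines of points are genes without a count in 1 group. Ctgf and Krt4 lie at the top, Mptx1 and Car4 at the bottom, while Mki67 and Top2a sit close below 0.

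Between day 3 and the mean of days 4 and 5 far fewer genes differed: 980 were higher at day 3 (7.62%) and 883 lower (6.86%), with a median of all genes of 0.01. Against day 4 alone 151 genes were higher at day 3 (1.17%) and 205 lower (1.59%), and against day 5 alone 1347 (10.5%) and 1273 (9.9%). These comparisons share the day 3 libraries with the one against crypts and with each other. Leaving out a day 3 library lowered the count of higher genes to 570, 594 and 644, and that of lower genes to 469, 536 and 592, for replicates 1, 2 and 3.

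Genes of cell division were expressed at day 3, below their level in crypts and far above their level at day 5. Mki67, the nuclear protein by which dividing cells are stained, was at 933, 1082 and 866 CPM in crypts and at 511, 387 and 359 at day 3. It was then at 234, 359.8 and 361 at day 4 and 40.7, 31.2 and 40.7 at day 5. The day 3 libraries lay below all crypts libraries and above all day 5 libraries, but overlapped with day 4. The change was -1.20 ± 0.16 against crypts (edgeR adjusted p = 2.96e-06), 0.40 ± 0.16 against day 4 (not called, adjusted p = 0.242) and 3.50 ± 0.18 against day 5 (adjusted p = 6.24e-10).

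Top2a, the topoisomerase that untangles sister chromosomes, fell in the same order. Its values were 254, 295 and 263 CPM in crypts and 147, 128 and 121 at day 3, then 77.8, 106 and 107 and 9.07, 10.2 and 9.01 at days 4 and 5. The change was -1.04 ± 0.12 against crypts, 0.45 ± 0.12 against day 4 (edgeR adjusted p = 0.0494) and 3.79 ± 0.15 against day 5. Every day 3 library was above every library of the later days.

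The list of 75 genes of mitotic entry, kinetochore, spindle and cytokinesis summed to 4185, 4824 and 3803 CPM in crypts and 2880, 2460 and 2318 at day 3, which is 59.8% of the crypt mean. At day 4 it summed to 1711, 2362 and 2329 (50%) and at day 5 to 642, 574 and 605 (14.2%). The day 3 and day 4 libraries overlapped on this sum, and day 5 lay apart from both. Against crypts, 44 of the 75 were lower and 3 higher, with a median of -0.82, beside 27.9% and 28.4% of all genes. Compared with days 4 and 5 together, 66 were higher and 0 lower, with a median of 1.53. Against day 5 alone 67 were higher, with a median of 2.81. Against day 4 alone, Top2a and the spindle motor gene Kif15 were the 2 of the 75 that passed the test, and the median was 0.27.

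Not every mitotic gene was lower than in crypts. Tpx2, which builds spindle fibres around chromosomes, stood at 52.5, 66.7 and 52.1 CPM in crypts and 59.2, 54.2 and 51.6 at day 3 (-0.06 ± 0.19, edgeR adjusted p = 0.818), and at 5.64, 3.23 and 7.97 at day 5 (3.37 ± 0.23 for day 3 minus day 5). Ccnb1, the cyclin that drives entry into mitosis, stood at 14.2, 25.4 and 11 and 19.8, 11.8 and 9.4 CPM (-0.31 ± 0.40, adjusted p = 0.534), with groups that overlap. Without crypts replicate 2 the changes of Tpx2 and Ccnb1 against crypts were 0.08 and 0.12, still uncalled. The 3 genes called higher than in crypts, singled out after their values were seen, were Kif23 (0.82 ± 0.18) and Ect2 (0.71 ± 0.22), which act in cytokinesis, and Ckap5 (0.50 ± 0.13), which lengthens microtubules. Kif23 was at 60.1, 70.5 and 35.4 CPM in crypts and 104, 95.5 and 90.9 at day 3. The call of Ect2 was lost with library totals (0.54, edgeR adjusted p = 0.0528).

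Deeper losses lay in Pbk, a mitotic kinase, at 9.61, 16.3 and 14.3 CPM in crypts and 2.5, 3.01 and 2.2 at day 3 (-2.38 ± 0.46, edgeR adjusted p = 0.00023), and in Kif15, at 52.3, 59.9 and 54.5 and 20.1, 13.8 and 13.3 (-1.83 ± 0.29, 2.86e-05). Nuf2 of the kinetochore was lower too (-1.79 ± 0.48, adjusted p = 0.00371). Birc5 (survivin), of the complex that guards chromosome attachment, was at 38.3, 45.8 and 31.2 and 30.2, 19.7 and 18.2 CPM (-0.76 ± 0.27, adjusted p = 0.0247). That call was lost without crypts replicate 2 (-0.61, adjusted p = 0.0933) and without day 3 replicate 2 or 3 (0.098 and 0.114). Casc5, a kinetochore scaffold, was lower than in crypts (-1.14 ± 0.25) and higher than at days 4 and 5 (2.28 ± 0.24), with 31.6, 21.3 and 19.5 CPM at day 3 and 3.63, 1.26 and 1.04 at day 5. At day 4 it was at 11.5, 11.9 and 17.2 CPM, and the difference from day 4 alone was not called (0.84 ± 0.26, edgeR adjusted p = 0.108).

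**Figure D2:**
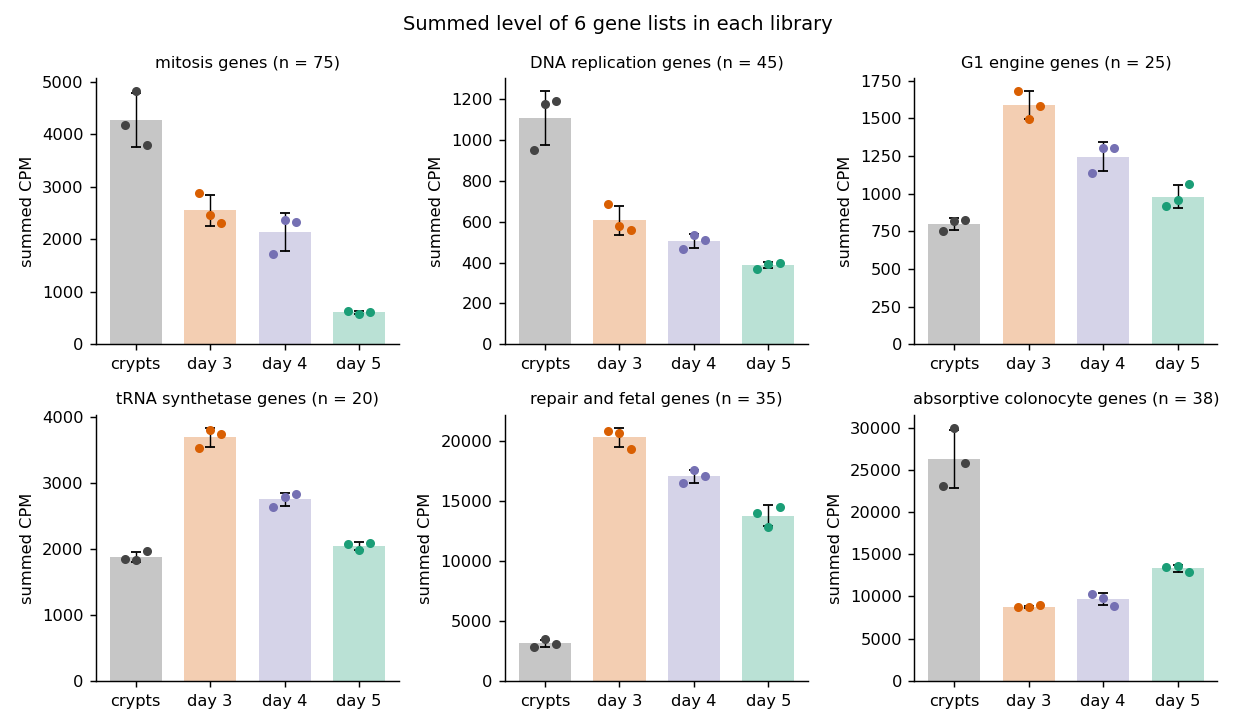
Summed CPM of 6 gene lists (y axes, each from 0) in crypts and in monolayers at day 3, day 4 and day 5 (x axes). Bars are means, error bars the SD of 3 libraries and points single libraries. The mitosis sum is at 2553 CPM at day 3, near the 2134 of day 4 and above the 607 of day 5, while the tRNA synthetase, G1 engine and repair sums are highest at day 3.

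DNA replication genes were lower at day 3 than in crypts, and a smaller number exceeded the later days. The 45 genes of origin licensing and the replication fork summed to 954, 1179 and 1190 CPM in crypts and 688, 577 and 558 at day 3. Against crypts 28 were lower and 1 higher (median -0.95), though 18 were lower without day 3 replicate 3. Against days 4 and 5, 17 were higher and 1 lower (median 0.61), or 11 higher without day 3 replicate 1. Mcm6 and Mcm3, of the helicase ring loaded at origins, were at 44.9, 58.6 and 69.4 and 36.2, 60.3 and 56.7 CPM in crypts and at 22.5, 17.6 and 14.5 and 24.9, 22.5 and 19.7 at day 3. Their changes were -1.67 ± 0.29 and -1.20 ± 0.22 against crypts, and 1.77 ± 0.27 and 1.89 ± 0.20 against days 4 and 5 (edgeR adjusted p = 0.000147 and 5.08e-06). Mcm3 alone of the list was called against day 4 (1.16, adjusted p = 0.00904).

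Among the enzymes of the fork, Pole, a DNA polymerase, fell from 27.7 ± 1.77 to 7.85 ± 0.76 CPM (-1.82 ± 0.38), and Clspn, which relays fork stalling to the checkpoint, from 32.6 ± 6.45 to 9.12 ± 1.73 (-1.85 ± 0.26). Mcm10, which helps to start the fork, was also lower than in crypts (-1.96 ± 0.24). Pcna, the sliding clamp, went the other way from the list against the later days, though not against crypts. Its level was 34.8, 39.3 and 39.5 CPM in crypts, 30.6, 37.6 and 31.1 at day 3 and 50, 44.1 and 47.1 at day 5. It was not called against crypts (-0.20 ± 0.13, adjusted p = 0.217) except with library totals (-0.37, adjusted p = 0.028), and it was lower than at days 4 and 5 (-0.38 ± 0.12, adjusted p = 0.0347), a call that most of the fits without 1 monolayer library did not keep (for example -0.32, adjusted p = 0.189 without day 3 replicate 1). The 1 gene higher than in crypts was the primase subunit gene Prim2, at 12, 12.7 and 11.5 and 42.7, 33.9 and 37.2 CPM (1.65 ± 0.16), named after its values were seen.

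Histone genes, whose transcripts accumulate in S phase, had 24 of 43 lower than in crypts and 0 higher (median -1.09). Against days 4 and 5, 18 were higher and 1 lower (median 0.93), or 9 higher without day 3 replicate 1 and 3 against day 4 alone. The linker histone gene Hist1h1a was at 34.8, 47 and 34.1 CPM in crypts and 5.89, 4.45 and 7.12 at day 3 (-2.73 ± 0.27, edgeR adjusted p = 9.72e-08), and Hist1h1b at 67.9, 85.1 and 55.8 and 31.4, 17.4 and 19.9 (-1.61 ± 0.24). Hist1h2bc, which is known to be transcribed outside S phase as well, was the exception at the later days, lower at day 3 (-0.50 ± 0.10). Near-identical histone copies make single members of this family uncertain. DNA repair genes had 15 of 29 lower than in crypts and 0 higher (median -0.80), but 9 and 8 lower without day 3 replicate 2 and 3. Neil3, a glycosylase of dividing cells, was among them, at 19.3 ± 3.89 and 3.02 ± 1.54 CPM (-2.68 ± 0.49).

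**Figure D3:**
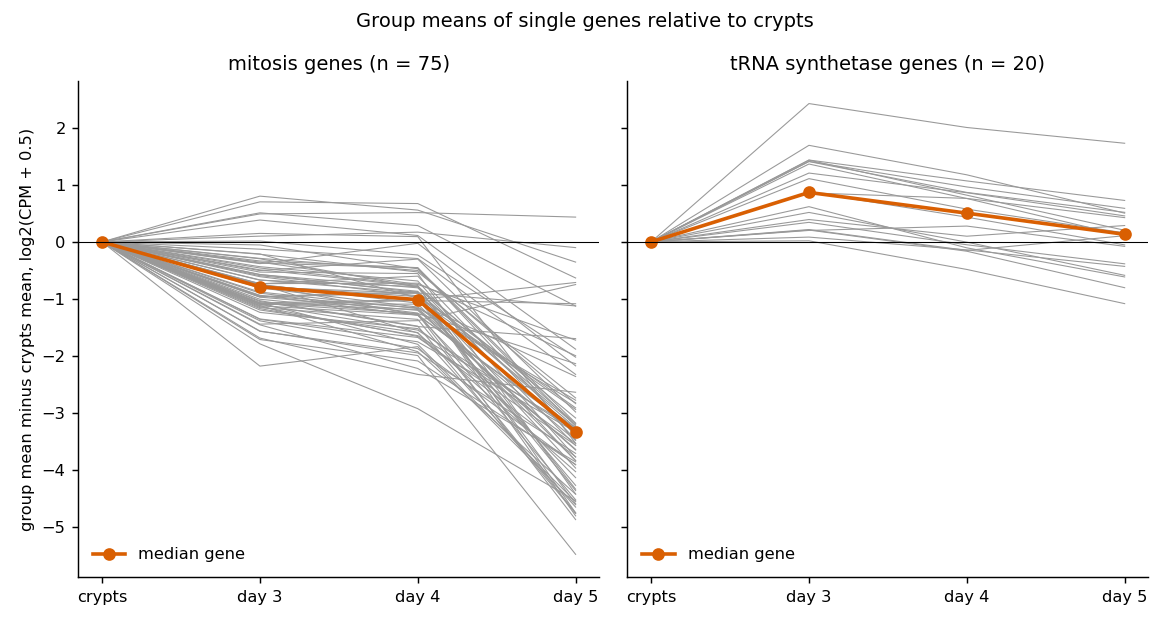
Grey lines follow the group means of single genes over crypts, day 3, day 4 and day 5 (x axes), as the difference from the crypts mean on the log2(CPM + 0.5) scale (y axis), and the orange line is the median gene. Most of the 75 mitosis genes stay near their day 3 level at day 4 and drop at day 5, while the median of the 20 tRNA synthetase genes is highest at day 3.

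Of the genes of G1, Myc, the growth factor target that drives ribosome and nucleotide synthesis, was at 29.8, 23.6 and 22.4 CPM in crypts and 267, 223 and 268 at day 3, and then at 143, 173 and 179 and 80.6, 88.1 and 110.1. No day 3 library overlapped with any other group. Its change was 3.34 ± 0.15 against crypts (edgeR adjusted p = 7.79e-13) and 1.03 ± 0.11 against days 4 and 5 (3.63e-06). Ccnd1 (cyclin D1) was at 78.7, 75.3 and 89.7 and 476, 418 and 430.2 CPM (2.44 ± 0.11), its partner kinase gene Cdk6 at 30.8, 30.1 and 27.6 and 102, 88.4 and 94.1 (1.69 ± 0.12), and Ccnd2 was higher by 1.22 ± 0.12.

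Those 4 were the genes that rose of the 25 in the list of G1 cyclins, kinases and E2F factors, while 7 fell (median -0.08, or 0.01 without crypts replicate 3). Over all genes tested 28.4% were higher and 27.9% lower, so neither count sets the list apart. Of them Ccnd2, Ccne2, E2f2, Cdk2, Cdc25a and Tfdp2 were named after their values were seen. The lower genes were E2f8, a repressor within the E2F family (-1.93 ± 0.29), Skp2, which targets p27 for degradation (-1.68 ± 0.53), Ccne2 (cyclin E2, -1.68 ± 0.43), E2f2 (-1.35 ± 0.27), Cdk2 (-1.10 ± 0.24), Cdc25a (-1.06 ± 0.20) and Tfdp2 (-0.78 ± 0.15). Skp2 stood at no more than 10.6 CPM and was not called without crypts replicate 1 or day 3 replicate 2 (edgeR adjusted p = 0.0546 and 0.0576). Summed over the list, the level was 749, 819 and 825 CPM in crypts and 1680, 1498 and 1578 at day 3, with the groups apart. Ccnd1 (means of 81.2 and 442 CPM) and Myc (25.3 and 253) made up most of that gap, which the list median does not show. Against days 4 and 5, 7 of the 25 were higher at day 3 and 0 lower, or 3 to 4 higher without day 3 replicate 1 or 3, day 4 replicate 1 or day 5 replicate 2. The count was 2 higher against day 4 alone.

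Of 31 genes of cell cycle arrest and the p53 response, 21 were higher than in crypts and 5 lower (median 1). Cdkn1a (p21), the CDK inhibitor that p53 induces, was at 78.5, 78.7 and 83.7 CPM in crypts and 158, 186 and 159 at day 3 (1.06 ± 0.10, edgeR adjusted p = 2.4e-08). Phlda3, a p53 target that restrains AKT, was at 0.191 ± 0.196 and 20.4 ± 2.67 CPM (6.52 ± 0.41, or 7.23 without crypts replicate 2), the kinase gene Plk2 at 24.8 ± 7.2 and 297 ± 8.08 (3.55 ± 0.15) and the death factor gene Pmaip1 (Noxa) at 22.7 ± 11.8 and 256 ± 24.3 (3.54 ± 0.25). Cdkn2a had no count in crypts and 3.59, 1.43 and 3.41 CPM at day 3, at least 21.5-fold higher against a floor of 3 counts over the crypts. The lower genes were Cdkn2c (-3.49 ± 0.98, or -4.33 without day 3 replicate 3), Fas (-1.88 ± 0.36), Rbl1 (-1.76 ± 0.21) and Rbl2 (-0.48 ± 0.13), 4 genes named after their values were seen, and Cdkn1b.

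Cdkn1b (p27), the inhibitor that holds resting cells out of the cycle, was lowest at day 3. It stood at 46.3, 53.5 and 51.5 CPM in crypts, 40.3, 41.5 and 44.8 at day 3, then 66.5, 68.2 and 62.4 at day 4 and, by day 5, 83.1, 79.9 and 79.6, with no overlap between day 3 and any other group. The difference from days 4 and 5 was -0.79 ± 0.10 (edgeR adjusted p = 1.77e-05), and it was called against day 4 alone as well (-0.64, 0.00299). The difference from crypts was at the threshold (-0.26 ± 0.11, adjusted p = 0.0499) and was not called in most alternatives, among them the fit of the 6 libraries alone (adjusted p = 0.0946) and the one without day 3 replicate 1 (0.154). Cdkn1c (p57) was lower than at days 4 and 5 too (-0.96 ± 0.22, adjusted p = 0.00507, or -0.78 and 0.0532 without day 3 replicate 1), although higher than in crypts (0.92 ± 0.26). In all 7 of the list were lower than at the later days and 1 higher, but 1, 3, 4 and 4 lower without day 3 replicate 1, day 3 replicate 3, day 4 replicate 1 and day 4 replicate 3. The comparison with day 4 alone had 3 lower and 0 higher.

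The promoters of mitosis and replication genes carry known cell cycle elements, and 4 are shown, 2 from each list. Their genes had the largest fitted excess of day 3 over the later days among the genes considered with a CHR or E2F match. Not every chromosome was considered for this choice, so a gene left out may have a larger excess. They are the 250 bases before the start of each gene from RefSeq on GRCm38.p6, in the gene's orientation, with capitals for the cell cycle homology region (CHR, TTTGAA), the CCAAT box (CCAAT) and the E2F site (GGCGGGAA), each searched on both strands. Kif11 lies at chr19:37376132-37376381 on the plus strand, Cdc20 at chr4:118437344-118437593 on the minus strand, Cdc45 at chr16:18811973-18812222 on the minus strand and Prim1 at chr10:128014965-128015214 on the plus strand.
Kif11: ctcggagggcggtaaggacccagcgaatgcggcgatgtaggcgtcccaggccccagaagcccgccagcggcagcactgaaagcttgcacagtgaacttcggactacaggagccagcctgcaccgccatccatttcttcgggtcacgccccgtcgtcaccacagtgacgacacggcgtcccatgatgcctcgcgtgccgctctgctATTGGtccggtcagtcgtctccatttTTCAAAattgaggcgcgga
Cdc20: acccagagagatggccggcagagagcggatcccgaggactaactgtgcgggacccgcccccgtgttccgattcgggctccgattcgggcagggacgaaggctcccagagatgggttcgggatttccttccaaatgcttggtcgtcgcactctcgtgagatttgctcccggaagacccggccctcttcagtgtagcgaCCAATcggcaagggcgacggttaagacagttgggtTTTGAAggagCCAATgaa
Cdc45: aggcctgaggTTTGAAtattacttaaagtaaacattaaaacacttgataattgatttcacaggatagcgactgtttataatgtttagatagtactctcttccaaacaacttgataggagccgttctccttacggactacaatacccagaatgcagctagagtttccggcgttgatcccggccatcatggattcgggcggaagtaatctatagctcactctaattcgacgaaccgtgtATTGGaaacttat
Prim1: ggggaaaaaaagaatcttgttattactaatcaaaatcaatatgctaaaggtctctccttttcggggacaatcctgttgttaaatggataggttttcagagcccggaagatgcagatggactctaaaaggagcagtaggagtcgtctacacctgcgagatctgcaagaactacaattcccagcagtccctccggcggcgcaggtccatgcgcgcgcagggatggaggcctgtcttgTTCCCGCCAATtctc
In Kif11 and Cdc20 the CHR begins 19 and 18 bases before the start, with a CCAAT box upstream of it, at 45 and 53 bases. In Cdc45 the CHR letters lie 240 bases before the start, far from the CCAAT box at 13. Prim1 has no CHR in this window, and its E2F letters at 15 bases overlap with its CCAAT box at 9. A match is a description of the letters, not a measured site.

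The 4 genes had these levels. Kif11, the motor that separates spindle poles, was at 94.3, 79.5 and 68.8 CPM in crypts, 34.2, 24 and 22.8 at day 3, then 8.36, 23.8 and 27.5 at day 4 and, by day 5, 1.81, 1.26 and 0.867 (2.41 ± 0.30 against days 4 and 5, edgeR adjusted p = 2.05e-05). Cdc20, which triggers anaphase, was at 22.8, 23.9 and 23.7, 19.2, 16.6 and 12.5, 13.6, 18.7 and 15.1 and 0, 0.628 and 1.21 CPM in the same order (2.33 ± 0.28, 2.03e-05). Day 3 and day 4 overlapped for both, while day 5 lay below. Cdc45 of the replicative helicase went from 10.8 ± 1.81 CPM in crypts to 3.61 ± 1.45 at day 3 and 0.522 ± 0.754 at day 5 (2.04 ± 0.56 against days 4 and 5), and the primase gene Prim1 from 12.8 ± 2.06 to 4.21 ± 2.76 and 0.755 ± 1.01 (1.87 ± 0.54). Both of the latter are genes of low level whose call against the later days depended on single libraries. Cdc45 was 1.78, 1.96 and 1.76 higher (edgeR adjusted p = 0.114, 0.0726 and 0.056) without day 3 replicate 2, day 3 replicate 3 and day 5 replicate 2, and 3.00 without day 5 replicate 3. Prim1 was 1.20 higher (adjusted p = 0.291) without day 3 replicate 1, 2.65 without day 5 replicate 3, and not called without day 4 replicate 1, day 4 replicate 2 or day 5 replicate 2 (0.0592, 0.0574 and 0.0731).

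Over the whole lists, windows of 300 bases (250 before and 50 after the start) were searched. A CHR was in 63.9% of the 72 windows of the 64 mitosis genes that could be matched, 14% of the 43 windows of 35 replication genes and 17.9% of all 32851 windows. CCAAT was in 70.8%, 60.5% and 37.4% of them, and the E2F letters in 4.17%, 14% and 2.19%. CHR letters were thus more frequent in mitosis windows than in all windows, and E2F letters in replication windows. Among YAP targets the TEAD letters GGAATG were in 42.1% of 19 windows (8 windows) against 14.7% of all, and among glycolysis and hypoxia genes the hypoxia core ACGTG was in 58.5% of 53 windows against 19.6%. ACGTG was also in 30.6% of mitosis windows and 27.9% of replication windows. The YAP and hypoxia lists were written for targets of these pathways, so their shares are not independent of that choice.

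Genes that charge tRNAs were, in sum, higher at day 3 than in any other group. The 20 cytoplasmic tRNA synthetase genes, which charge tRNAs with amino acids, summed to 1846, 1829 and 1967 CPM in crypts and 3525, 3804 and 3736 at day 3, then 2640, 2780 and 2829 at day 4 and 2076, 1977 and 2081 at day 5. No library of another group reached the day 3 sums. Of the 20, 14 were higher than in crypts and 0 lower (median 0.87), and 17 were higher than at days 4 and 5 with 0 lower (median 0.66). Against day 4 alone 10 were higher, beside 1.17% of all genes and 2 of the 75 mitosis genes.

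Nars, for asparagine, was at 171, 180.5 and 207 CPM in crypts and 452, 558 and 505 at day 3, and at 337, 313 and 339 and 187, 228 and 229 on the later days (1.44 ± 0.10 against crypts and 0.92 ± 0.09 against days 4 and 5, edgeR adjusted p = 1e-09 and 1.17e-06). Cars, for cysteine, had the largest change against crypts (36.5, 36.4 and 30.8 and 178, 189.7 and 197 CPM, 2.46 ± 0.13), followed by Iars (1.70 ± 0.12) and Sars (1.45 ± 0.11). Wars, for tryptophan, and Mars, for methionine, had the largest differences from the later days (0.98 ± 0.10 and 0.95 ± 0.11).

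A gene induced by amino acid shortage and a gene of serine synthesis were among the 10 with the largest excess over the later days. Trib3, a pseudokinase induced when amino acids run short, had 3 counts in crypts, all in replicate 2, and was at 36.8, 61.8 and 57.5 CPM at day 3, then 11.8, 21.3 and 20.7 at day 4 and, by day 5, 11.5, 7.8 and 8.84. Its ratio over crypts was 424 (145 to 2057), with an exact 95% interval that covers counting error only, and its difference from days 4 and 5 was 2.02 ± 0.23 (edgeR adjusted p = 1.05e-05). Psat1, of serine synthesis, was at 4.61, 4.83 and 3.7 CPM in crypts and 83.5, 99.5 and 101 at day 3 (4.45 ± 0.18), then at 45.4, 56.1 and 55.7 and 13.1, 10.6 and 11.1 (1.95 ± 0.12, 1.16e-08). Both were higher in every day 3 library than in any other library.

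Looked up after these values were seen, Phgdh, the first enzyme of serine synthesis, was higher by 2.99 ± 0.19 against crypts and 1.38 ± 0.14 against the later days. Asns, which makes asparagine, was higher by 2.92 ± 0.13 and 1.36 ± 0.10, with 22.6, 26.1 and 27.6 CPM in crypts and 164, 211 and 207 at day 3. Atf4, the transcription factor that controls this group of genes when amino acids are scarce, was higher by 1.32 ± 0.09 and 0.71 ± 0.07 (edgeR adjusted p = 2.84e-10 and 3.26e-06).

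In the nucleotide and folate list, Mthfd2 and Shmt2, of mitochondrial one-carbon metabolism, were higher than in crypts, at 8.61, 16.6 and 20.5 against 83.7, 102 and 107 CPM (2.63 ± 0.23) and 20, 24.7 and 21.5 against 97.7, 122 and 118 (2.35 ± 0.14). Shmt1, the cytosolic counterpart, was at 44.1, 44.6 and 48.8 and 9.09, 5.31 and 5.91 CPM (-2.77 ± 0.28, edgeR adjusted p = 1.27e-07). Of 27 genes 6 were higher and 10 lower than in crypts (median -0.39), beside 28.4% and 27.9% of all genes. Relative to days 4 and 5, 10 were higher with 0 lower (median 0.61), or 6 higher without day 3 replicate 1 and 2 against day 4 alone. Rrm2, the S phase subunit that makes deoxynucleotides, exceeded the later days by 1.72 ± 0.33, but was not called against day 4 alone (1.28, edgeR adjusted p = 0.0947).

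Ribosome biogenesis genes had 6 of 50 higher and 5 lower than in crypts (median 0.02), both under the background shares of 28.4% and 27.9%. The median was -0.01 with RLE factors, -0.15 with library totals and -0.03 without crypts replicate 1, and those counts were 3 and 11 with library totals and 3 and 8 without crypts replicate 1. Npm1, a nucleolar chaperone of ribosome assembly, was higher (249.9, 257 and 267 and 592, 597 and 552 CPM, 1.17 ± 0.08) and Utp20, of the small subunit processome, lower (198, 191 and 207 and 55.2, 36.4 and 39.5, -2.19 ± 0.17). Relative to days 4 and 5, 18 of the 50 were higher and 0 lower (median 0.44), or 8 without day 3 replicate 1 and 2 against day 4 alone.

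Ligands of the EGF receptor and genes that its ERK cascade induces were higher than in crypts, 20 of 23 with 3 lower (median 2.08). Areg (amphiregulin) was at 36, 23.9 and 14.2 CPM in crypts and 771, 935 and 882 at day 3, and then at 504, 548 and 523 and 473, 378 and 387 (5.19 ± 0.22 against crypts and 0.89 ± 0.14 against days 4 and 5, edgeR adjusted p = 4.28e-13 and 0.000318). Ereg (epiregulin) was at 2.4, 11 and 6.68 and 153, 167 and 168 CPM, and at 55.6, 60.2 and 57 by day 5 (4.53 ± 0.23 against crypts and 1.14 ± 0.15 against days 4 and 5). Day 3 was the highest group for both ligands, without overlap.

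Of the targets, Ier3, an early response gene, was at 2.13 ± 0.432 and 164 ± 13.2 CPM (6.20 ± 0.19) and the ERK phosphatase gene Dusp4 at 3.65 ± 1.04 and 142 ± 15.8 (5.20 ± 0.15). Fosl1 (Fra-1), an AP-1 subunit stabilised by ERK, was at 2.4, 2.35 and 1.17 CPM in crypts, 28.7, 33.2 and 33.6 at day 3, then 12.2, 14 and 14.5 at day 4 and, by day 5, 7.06, 8.97 and 13.2 (1.47 ± 0.20 against days 4 and 5, edgeR adjusted p = 6.78e-05). The receptor gene Erbb2 was lower than at days 4 and 5 (-0.58 ± 0.08), and slightly lower than in crypts (-0.26 ± 0.09, adjusted p = 0.0172, but 0.111 without crypts replicate 2, 0.0514 without day 3 replicate 1 and 0.0775 without day 3 replicate 2). Against the later days 10 of the 23 were higher and 2 lower (median 0.41), and 5 and 1 against day 4 alone. Over all genes tested the shares were 7.62% and 6.86%, and 1.17% and 1.59% against day 4 alone.

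YAP targets were higher than in crypts for 19 of 22 genes and lower for 2 (median 3.09), with smaller differences from the later days. Ctgf, a secreted matrix-associated protein, had no count in crypts and stood at 987, 904 and 957 CPM at day 3, at least 7480-fold higher. It was at 565, 844 and 723 at day 4 and 368, 415 and 508 at day 5 (0.78 ± 0.11 against the mean of the 2 days, edgeR adjusted p = 0.000137). The difference from day 4 alone was not called (0.42 ± 0.13, adjusted p = 0.118). Ankrd1, a nuclear ankyrin repeat protein, also had no count in crypts and was at 14.5, 23.9 and 25.6 CPM at day 3 (at least 174-fold). F3 (tissue factor) was higher by 5.87 ± 0.13 and the LIM protein gene Ajuba by 5.40 ± 0.22 (6.08 without crypts replicate 3). Of the 22, 7 were higher and 1 lower than at days 4 and 5 (median 0.13), beside 7.62% and 6.86% of all genes. Against day 4 alone 2 were higher and 0 lower, beside 1.17% and 1.59%. Tead4, a DNA-binding partner of YAP, was among the 7, at 64.5, 54.2 and 61.7 CPM against 18.7, 19.5 and 23.9 at day 5. Its change was 1.20 ± 0.24 against days 4 and 5 and 1.54 ± 0.30 against day 5 alone. At day 4 Tead4 was at 31.3, 37.1 and 31.4 CPM, and the difference from day 4 alone was not called (0.85 ± 0.29, edgeR adjusted p = 0.153). In contrast, the YAP-induced kinase gene Nuak2 was lower than in crypts (-3.10 ± 0.28).

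Wnt and stem cell genes split. Of 21 genes 11 were higher and 7 lower than in crypts (median 0.19), beside 28.4% and 27.9% of all genes tested. The count of higher genes was 7 with library totals and without crypts replicate 2. Higher were the Wnt feedback gene Axin2 (52.3, 68.1 and 73.7 and 197, 179 and 175 CPM, 1.49 ± 0.15, edgeR adjusted p = 7.45e-08) and Cd44, the hyaluronan receptor and Wnt target (101, 121 and 164 and 685, 600.5 and 590.2, 2.27 ± 0.17), which was at 204, 205 and 250.3 CPM at day 5 (1.51 ± 0.17 for day 3 minus day 5). At day 4 Cd44 was at 325, 536 and 450 CPM, and the difference from day 4 alone was not called (0.52 ± 0.16, edgeR adjusted p = 0.109). Lower were 3 genes of the stem cell at the crypt base: Smoc2, with a crypts to day 3 ratio of 812 (145 to 32140), Tnfrsf19, with one of 41.2 (13.6 to 204), and Ascl2, the transcription factor of that cell (-3.18 ± 0.76). Lgr5, its receptor, was at 6.41, 21.8 and 9.74 CPM in crypts and 6.69, 7.17 and 7.65 at day 3 (-0.82 ± 0.42, adjusted p = 0.101), with overlap. The difference was -0.18 without crypts replicate 2, -1.12 (adjusted p = 0.0256) without crypts replicate 1 and -0.99 (0.0485) with library totals. Relative to days 4 and 5 Lgr5 was higher (1.31 ± 0.37, adjusted p = 0.0233, but 0.0665, 0.0786 and 0.089 without each day 3 library, 0.0559 without day 4 replicate 1 and 0.0639 without day 5 replicate 2). It was not called against day 4 alone (0.67, edgeR adjusted p = 0.555).

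Notch and secretory fate genes had 10 of 16 lower and 4 higher (median -1.02), beside 27.9% and 28.4% of all genes. The count of higher genes does not set the list apart. Atoh1, which commits cells to the secretory lineage, was at 76.1, 66.4 and 71.7 CPM in crypts and 0, 0.287 and 0.152 at day 3 (-8.68 ± 0.40, edgeR adjusted p = 1.43e-11, or -9.48 without day 3 replicate 2). Spdef, of goblet cell maturation, was at 120, 96.6 and 105 and 0.0999, 0.646 and 0.152 CPM (-8.32 ± 0.39, or -9.54 without day 3 replicate 2).

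Genes of wound repair and fetal epithelium were higher than in crypts for 31 of 33, with 0 lower and a median of 3.59. They summed to 2849, 3479 and 3050 CPM in crypts and 20890, 20680 and 19400 at day 3, 6.5 times the crypt mean, and to 17090 ± 529.8 at day 4 and 13810 ± 852 at day 5. The day 3 sums were the highest of all. Clu (clusterin), the marker of revival stem cells, was at 4.01, 3 and 3.7 CPM in crypts and 1413, 1181 and 1154 at day 3 (8.46 ± 0.17, edgeR adjusted p = 6.36e-17).

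Ly6a (Sca-1), of regenerating colon, was at 82.3, 197 and 57.6 CPM in crypts and 1349, 1491 and 1165 at day 3 (3.57 ± 0.29, or 4.28 without crypts replicate 2). The repair genes that exceeded the later days numbered 18 of 33 with 0 lower (median 0.44), and 8 were higher than at day 4 alone. Sprr1a, a cross-linked envelope protein, was at 3.81, 21.9 and 8.12 CPM in crypts, 861, 891 and 697 at day 3 and 341, 244 and 292 at day 5. Its change was 1.17 ± 0.20 against days 4 and 5 (edgeR adjusted p = 0.000447). At day 4 Sprr1a was at 423, 486 and 444 CPM, and the difference from day 4 alone was not called (0.86 ± 0.24, adjusted p = 0.0637). The annexin gene Anxa8 and the interleukin 1 receptor antagonist gene Il1rn, both called against day 4 and named after their values were seen, were higher than at the later days by 1.05 ± 0.12 and 0.70 ± 0.07.

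Matrix, integrin and migration genes were higher than in crypts for 38 of 45 and lower for 1 (median 1.67). Col4a2, a chain of basement membrane collagen IV, was at 1, 2.61 and 1.17 and 465, 418 and 467 CPM (8.12 ± 0.18, edgeR adjusted p = 2.06e-16), and the laminin gene Lama5 at 9.41, 10.6 and 9.83 and 567, 538 and 605 (5.84 ± 0.13). Collagens of fibroblasts went the other way, with Col3a1 at 11, 34.8 and 2.89 CPM in crypts and no count at day 3. Itga2, a collagen receptor subunit, exceeded the later days (199.8, 204 and 216 CPM at day 3 and 104, 110.4 and 106 at day 5, 0.78 ± 0.09), as did the urokinase receptor gene Plaur (0.73 ± 0.13). Against the later days 6 were higher and 3 lower (median 0.10), but 10 to 14 were higher with DESeq2, with the 9 monolayer libraries alone and without crypts replicate 1, crypts replicate 2 or day 5 replicate 3. Over all genes 7.62% were higher and 6.86% lower, so the count of lower genes does not set the list apart.

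Keratin and cornified envelope genes, typical of stratified epithelia such as skin and oesophagus, had 18 of 24 tested members above crypts and 2 below (median 2.93, or 2.64 with genes at 0 set to their bound). Of the 37 in the files, 17 had no count in crypts and 6 none at day 3. Members without a crypt count passed the filter through the monolayers alone and could not come out lower. Krt4, a keratin of stratified mucosa, had no count in crypts, 317, 267 and 249 CPM at day 3, then 105, 171 and 166 at day 4 and, by day 5, 8.26, 15.1 and 20.5. That is at least 2168-fold above crypts, and 2.57 ± 0.17 above days 4 and 5 (edgeR adjusted p = 9.52e-08), the largest such excess among the called genes with a mean of at least 10 CPM and no overlap of groups. Tgm1, which cross-links the envelope, had no count in crypts either. It was at 17.3, 19.3 and 17.4 CPM at day 3 and 1.61, 2.51 and 2.6 at day 5 (1.94 ± 0.27 against days 4 and 5, edgeR adjusted p = 0.000127). At day 4 Tgm1 was at 7.84, 13.6 and 7.14 CPM, and the difference from day 4 alone was not called (0.91 ± 0.31, adjusted p = 0.171). Ivl (involucrin) and Lor (loricrin), of the same envelope, were at 20.2, 15.7 and 19.7 and 14.7, 12.8 and 13.2 CPM, at least 145-fold and 106-fold above crypts.

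Krt18, a keratin of simple epithelium, was higher than in crypts, at 539.7, 500.1 and 515 CPM against 2875, 2558 and 2768 (2.40 ± 0.09), while Krt20, a keratin of surface colonocytes, was lower (-4.94 ± 0.22). The homeobox genes Cdx1 and Cdx2 were lower, Cdx1 at 145, 119.7 and 152 and 10.2, 10.7 and 13 CPM (-3.61 ± 0.32) and Cdx2 at 109, 144 and 137 and 82, 87.9 and 92.9 (-0.57 ± 0.15, edgeR adjusted p = 0.00348). The nuclear receptor gene Hnf4g fell too (-1.64 ± 0.15). In all 11 of 18 epithelial markers were lower and 3 higher (median -0.34), beside 27.9% and 28.4% of all genes.

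Epcam, an adhesion molecule of all intestinal epithelium, was lowest at day 3. It stood at 1562, 1940.1 and 1620.5 CPM in crypts, 999, 1035 and 997 at day 3, then 1624, 1366 and 1285 at day 4 and, by day 5, 2125, 2008 and 1861. Day 3 overlapped with none of the other groups. Its differences were -0.76 ± 0.10 against crypts and -0.74 ± 0.09 against days 4 and 5 (edgeR adjusted p = 2.75e-06 and 1.42e-05), and -0.50 against day 4 alone. Cdh1 (E-cadherin) was not called against crypts (1336, 1594 and 1446 and 1494, 1433 and 1520.5 CPM, 0.02 ± 0.08, adjusted p = 0.814).

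Junction genes moved in both directions. Of 32 genes 17 were higher and 7 lower than in crypts (median 0.45), beside 28.4% and 27.9% of all genes tested. Relative to days 4 and 5, 2 were lower (median -0.05), beside 6.86% of all genes. Neither count of lower genes sets the list apart. Cldn4, a sealing claudin, was at 16, 16.8 and 8.12 CPM in crypts and 287, 291 and 335 at day 3 (4.53 ± 0.18, edgeR adjusted p = 3.27e-13), and Tjp1 (ZO-1), the scaffold of the tight junction, at 256, 268 and 232 and 878, 766 and 842 (1.72 ± 0.09). Cldn2, which forms cation pores, was at 95.5, 103 and 123 and 0, 0.143 and 0 CPM, a ratio of 2059 (569 to 17010), and Cldn15, also a pore former, at 109.8, 99 and 122 and 3.59, 2.3 and 3.33 (-5.17 ± 0.30). Cldn6, a claudin of embryonic epithelium, had no count in crypts and 8.89, 4.23 and 5 CPM at day 3.

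**Figure D4:**
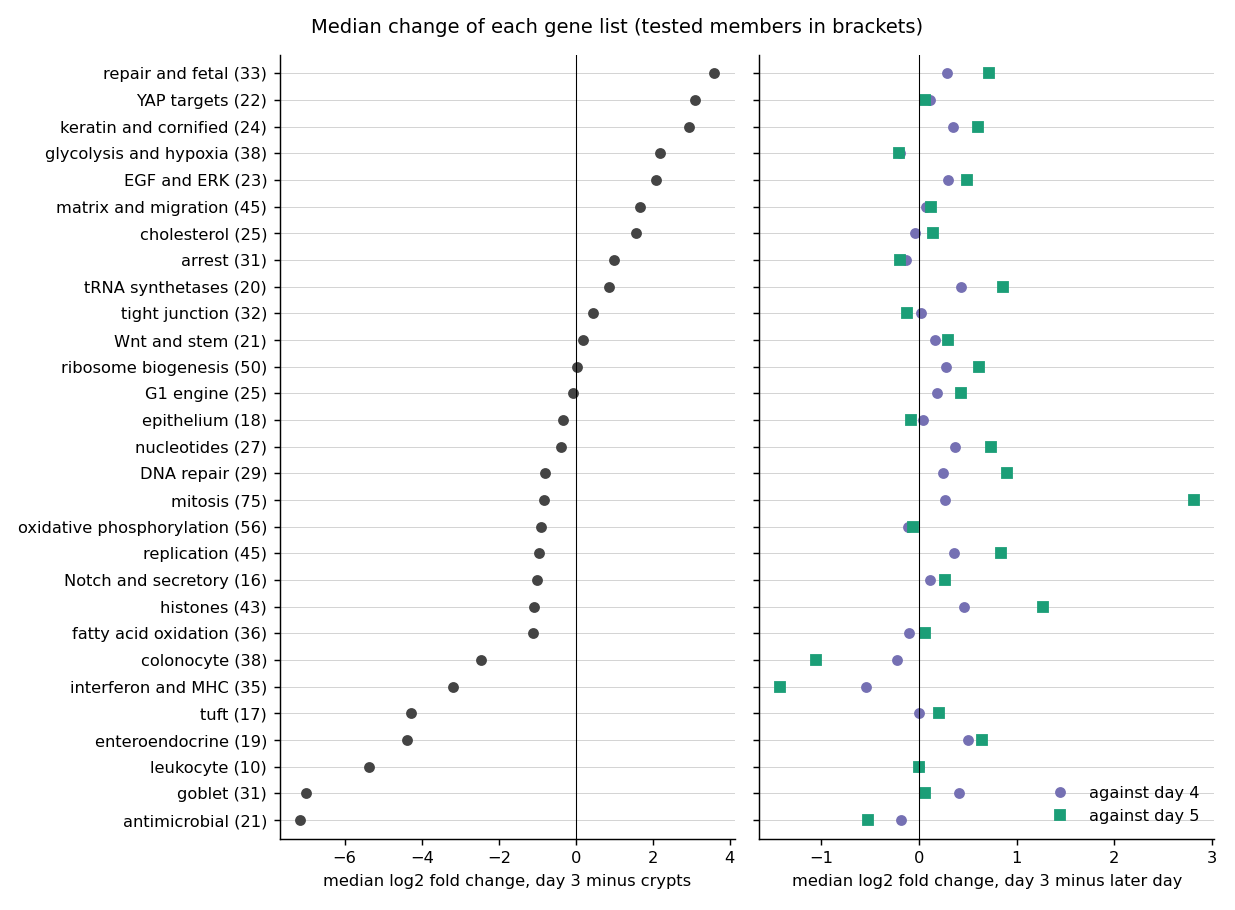
Median log2 fold change of each gene list with at least 10 tested members (names on the y axis, members tested in brackets). The left panel is day 3 minus crypts and the right panel day 3 minus day 4 (circles) and day 3 minus day 5 (squares), each on its own x axis. The mitosis list stands at 2.81 against day 5 and 0.27 against day 4, and interferon and colonocyte genes lie furthest to the left against day 5.

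Genes of mature absorptive colonocytes were lower at day 3 than in crypts and, for many, than at the later days. Of 38 genes 34 were lower than in crypts and 2 higher (median -2.46), and 22 were lower than at days 4 and 5 with 1 higher (median -0.61). Against day 4 alone 9 were lower and 0 higher, against a background of 1.59%. Krt20, a keratin of surface cells, was at 894, 1563 and 1351 CPM in crypts, 37.4, 38.1 and 48.5 at day 3, then 83.6, 59.7 and 44.7 at day 4 and, by day 5, 196, 164 and 164 (-4.94 ± 0.22 and -1.34 ± 0.18 against crypts and the later days, edgeR adjusted p = 1.23e-12 and 5.49e-05). Day 3 and day 4 overlapped, and the difference from day 4 alone was not called (-0.61, adjusted p = 0.141).

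The water channel gene Aqp8 was at 251, 223 and 195 CPM in crypts and 0.2, 0.143 and 0.152 at day 3 (-10.32 ± 0.31), at the edge of detection. Car4, a surface carbonic anhydrase, had 459, 413 and 502 CPM in crypts and no count at day 3, which is at least 5748-fold lower. Hsd11b2, which protects the mineralocorticoid receptor from glucocorticoids, had a crypts to day 3 ratio of 2347 (802 to 11380). Guca2a (guanylin) went from 1219 ± 155 to 1.28 ± 0.504 CPM (-9.84 ± 0.27). The 2 exceptions, named after their values were seen, were Car2, the cytosolic carbonic anhydrase (1.44 ± 0.09), and Emp1, a membrane protein of upper crypt cells (1.32 ± 0.21).

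Goblet cell genes were close to the limit of detection or far below crypts at day 3. They summed to 66660, 39980 and 48620 CPM in crypts and 480.2, 608 and 563 at day 3, 1.06% of the crypt mean, and 30 of 31 were lower with 0 higher (median -7.01). Muc2, the gel-forming mucin, was at 25958, 23156 and 24516 and 9.79, 12.6 and 14.2 CPM (-10.96 ± 0.64, edgeR adjusted p = 5.17e-11). Klk1, a kallikrein, was at 1108, 1009 and 1372 and 1.1, 0 and 0.227 (-11.53 ± 0.36, or -13.19 without day 3 replicate 1 and -10.86 without replicate 2), while Retnlb and Capn9 had no count at day 3 (at least 4519-fold and 319-fold lower).

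Part of the goblet list was nonetheless higher at day 3 than later, 8 of 31 with 1 lower (median 0.29), or 3 to 5 higher in the 9 monolayer libraries alone and without day 3 replicate 2, day 3 replicate 3, day 4 replicate 1 or day 5 replicate 2. Day 4 alone gave 2 higher and 1 lower. Agr2, a disulfide isomerase of mucin folding, was at 1509, 1466 and 1745 CPM in crypts, 6.09, 12.5 and 8.71 at day 3, then 0.861, 2.62 and 3.39 at day 4 and, by day 5, 4.03, 0.0897 and 0.347 (2.58 ± 0.40 against days 4 and 5, or 3.85 without day 5 replicate 1, edgeR adjusted p = 0.000184), and was chosen after its values were seen. Muc2 was not among the 8 (-0.08 ± 0.47, adjusted p = 0.95). At day 5 it was at 54.4, 5.38 and 6.07 CPM, highest in replicate 1. Without that library Muc2 was 0.83 higher at day 3 (adjusted p = 0.00383).

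Enteroendocrine genes had 15 of 19 lower than in crypts and 1 higher (median -4.38), and tuft cell genes 12 of 17 lower and 1 higher (median -4.27). Tph1, which makes serotonin, was at 26.4, 21.5 and 65.6 CPM in crypts and 0.3, 0.143 and 0.0758 at day 3 (-7.76 ± 0.80, or -7.08 without crypts replicate 3), and the transcription factor gene Neurod1 fell (-5.29 ± 1.08, or -4.50 without crypts replicate 3). Among tuft genes Trpm5, their taste channel, had a ratio of 169 (46.2 to 1404), and Sh2d7 and Alox5ap had no count at day 3 (at least 84.5-fold and 42.2-fold). In these lists 1 and 0 genes were called lower than at the later days, and 0 and 1 higher, beside 6.86% and 7.62% of all genes.

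Transcripts of glycolysis were higher and those of respiration lower. In the glycolysis and hypoxia list 34 of 38 were higher than in crypts and 3 lower (median 2.19), with a sum of 3460, 3826 and 3583 CPM in crypts and 14950, 16640 and 16770 at day 3. Slc16a3, which exports lactate, was at 1.8, 1.3 and 2.08 and 121, 111 and 122 CPM (6.05 ± 0.17, edgeR adjusted p = 3.49e-15), Bnip3, of hypoxic mitophagy, at 6.81 ± 3.84 and 311 ± 22.7 (5.63 ± 0.20) and Pfkfb3, which makes the activator of phosphofructokinase, at 5.33 ± 1.61 and 209 ± 15.9 (5.37 ± 0.16). Of the 38, 13 were lower than at days 4 and 5 and 3 higher (median -0.16), or 7 lower without day 3 replicate 1 and 4 against day 4 alone. Over all genes 6.86% were lower and 7.62% higher than at days 4 and 5.

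Oxidative phosphorylation genes were lower for 54 of 56, with 0 higher (median -0.91). Cox5b, of cytochrome oxidase, was at 198, 166 and 183 and 56.8, 62.2 and 47.7 CPM (-1.71 ± 0.11, edgeR adjusted p = 2.28e-10), and the electron carrier gene Cycs at 22.4, 22.8 and 35.6 and 6.19, 7.82 and 4.85 (-2.11 ± 0.31). Fatty acid oxidation genes had 28 of 36 lower and 3 higher (median -1.11). In cholesterol synthesis 20 of 25 genes were higher and 2 lower (median 1.56), with Lss at 32.9 ± 9.96 and 223 ± 6.09 CPM (2.73 ± 0.16) and Cyp51 at 134 ± 30.9 and 565 ± 32.5 (2.06 ± 0.13), both enzymes of sterol ring formation and processing. Of this list 6 were higher and 3 lower than at the later days, beside 7.62% and 6.86% of all genes. The count of higher genes was 1 without any 1 of the day 3 libraries and 2 or 3 without a day 4 library or day 5 replicate 2. It was 3 with the replicate block and 0 against day 4 alone.

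Interferon response and antigen presentation genes were at their lowest at day 3. Of 35 genes 33 were lower than in crypts and 0 higher (median -3.18). Their sum was 1835, 4819 and 1859 CPM in crypts, where replicate 2 stood well above the others, and 948, 1010 and 986 at day 3, then 1377, 1305 and 1280 at day 4 and, by day 5, 2153, 1744 and 1960. Day 3 lay below all other libraries. Against days 4 and 5, 11 were lower and 0 higher (median -0.82). That count was 4, 5 and 7 without day 3 replicates 1, 2 and 3, but 20 without crypts replicate 2, 21 in the 9 monolayer libraries alone and 23 with no filter on low counts. Compared with day 4 alone, 2 were lower and 0 higher.

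Ifit1, an antiviral protein, was at 29.6, 278 and 51.2 CPM in crypts, 1.5, 2.15 and 1.89 at day 3, then 7.58, 20.3 and 14.5 at day 4 and, by day 5, 74.2, 19.4 and 31.5. It was lower than in crypts (-5.99 ± 0.78, or -4.44 without crypts replicate 2) and than at the later days (-3.66 ± 0.73, edgeR adjusted p = 0.00202). The difference from day 4 alone was not called (-2.90, adjusted p = 0.0624). Oasl2, of the same response, was at 23, 313 and 35.7 and 2.2, 2.15 and 2.8 CPM in crypts and day 3 (-5.69 ± 0.76, or -3.62 without crypts replicate 2) and at 48.4, 34.3 and 36.1 at day 5. Its call against the later days (adjusted p = 0.0286) was lost without any 1 day 3 library (0.108, 0.115 and 0.0818) and without day 4 replicate 2 (0.0591). At day 4 Oasl2 was at 3.53, 5.23 and 4.72 CPM, and the difference from day 4 alone was not called (-0.90 ± 0.86, edgeR adjusted p = 0.743). The class I gene H2-Q1, whose family has near-identical copies, was at 20.2, 30.9 and 21 CPM in crypts, 2.2, 1.79 and 2.27 at day 3 and 33.1, 26.5 and 23.7 at day 5 (-2.66 ± 0.32 against days 4 and 5).

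Crypts replicate 2, the highest in the interferon sum and in Reg3b and Reg3g, also held the most leukocyte marker RNA (79.1 CPM against 46.5 and 33.9), whose part in these differences was not tested. Antimicrobial genes had 17 of 21 lower and 4 higher than in crypts (median -7.15, or -6.75 with genes at 0 set to their bound). Over all genes 27.9% were lower and 28.4% higher. Reg3b and Reg3g, secreted lectins, were at 184, 1044 and 61.8 and 49.7, 306 and 18.3 CPM in crypts, mostly from replicate 2, with 1 and 0 counts at day 3. The 4 higher genes, named after their values were seen, were S100a8, the calprotectin subunit, with no count in crypts and 11.4, 8.03 and 6.52 CPM at day 3, Wfdc2 (2.29 ± 0.13), the nitric oxide synthase gene Nos2 (1.67 ± 0.47, or 2.44 without crypts replicate 2, with groups that overlap) and Pglyrp1 (0.95 ± 0.13).

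Of the 12 largest gains and losses against crypts, several fall outside these lists. Il5ra, a cytokine receptor chain, was at 108, 101 and 103 CPM at day 3 with no count in crypts (at least 822-fold), Cryab, a small heat shock protein, at 75.2, 76.8 and 72.4 (at least 592-fold), Serpinb11, of the serpins, at 44.9, 41.7 and 41.7 (at least 337-fold) and the translational repressor gene Samd4 at 37.3, 42.3 and 41.5 (at least 322-fold). Ptgs2, the inducible cyclooxygenase, had 2 counts in crypts and 254, 245 and 266 CPM at day 3, a ratio of 3029 (838 to 25010), and it was higher than at days 4 and 5 (0.79 ± 0.10, edgeR adjusted p = 3.92e-05). Arhgap40 and Syt16 also had no count in crypts (at least 299.9-fold and 190.2-fold), and Atg9b had 1 (a ratio of 4133 (741 to 163200)).

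Among the losses, Ffar2, a receptor for short-chain fatty acids, was at 36, 38.4 and 47.6 CPM in crypts and had no count at day 3 (at least 523-fold lower). Btnl1, which supports intraepithelial gamma delta T cells, was at 65.3, 86.9 and 88.1 CPM and had no count at day 3 (at least 1027-fold), nor did the phosphate transporter gene Slc34a2 (at least 516-fold) or the carboxylesterase gene Ces1g (at least 908-fold). Nov, Rgs17 and Clps likewise had no count (at least 2528-fold, 686-fold and 506-fold). Mptx1, a mucosal pentraxin that is a member of the goblet list above and part of its sum, was at 7094, 737 and 3466 CPM in crypts. Its ratio to day 3 was 62190 (17220 to 513500).

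Of the 10 genes with the largest deficit against the later days, 9 were lower than in crypts as well. Slc11a2, which imports iron, was the exception, at 23.8, 23.9 and 19.9 CPM in crypts, 72.4, 115 and 121 at day 3, then 425, 305 and 228 at day 4 and, by day 5, 1037, 1369 and 1005 (2.21 ± 0.22 against crypts and -2.55 ± 0.19 against the later days, edgeR adjusted p = 9.52e-08). Saa1, an acute phase protein of colonocytes with near-identical copies in its family, was at 251, 162 and 129 CPM in crypts, 0, 0.143 and 0.455 at day 3, then 2.24, 1.59 and 0.969 at day 4 and, by day 5, 26, 40.2 and 30 (-5.01 ± 0.51, or -6.25 without day 3 replicate 3). The groups of days did not overlap for either gene.

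Detoxifying enzymes made up 3 of the 10. Cyp2c55, a cytochrome P450 of colonic epithelium, was at 897, 1045 and 1044 CPM in crypts, 49, 63.6 and 69.9 at day 3 and 649, 709 and 514 at day 5 (-2.46 ± 0.21, edgeR adjusted p = 7.53e-07). Cyp4f14 (-2.81 ± 0.18) and Cyp2d26 (-2.40 ± 0.24) are of the same superfamily, and Cyp2d26 passed its crypt level by day 5 (18.2, 34.2 and 30.2 and 70.6, 75.3 and 77.8 CPM). The butyrophilin-like gene Btnl5 (-2.41 ± 0.22) and Clca6, of a family of secreted and membrane proteins of the gut surface (-2.41 ± 0.28), complete the 10 together with Ifit1, Oasl2 and H2-Q1, given above.

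**Figure D5:**
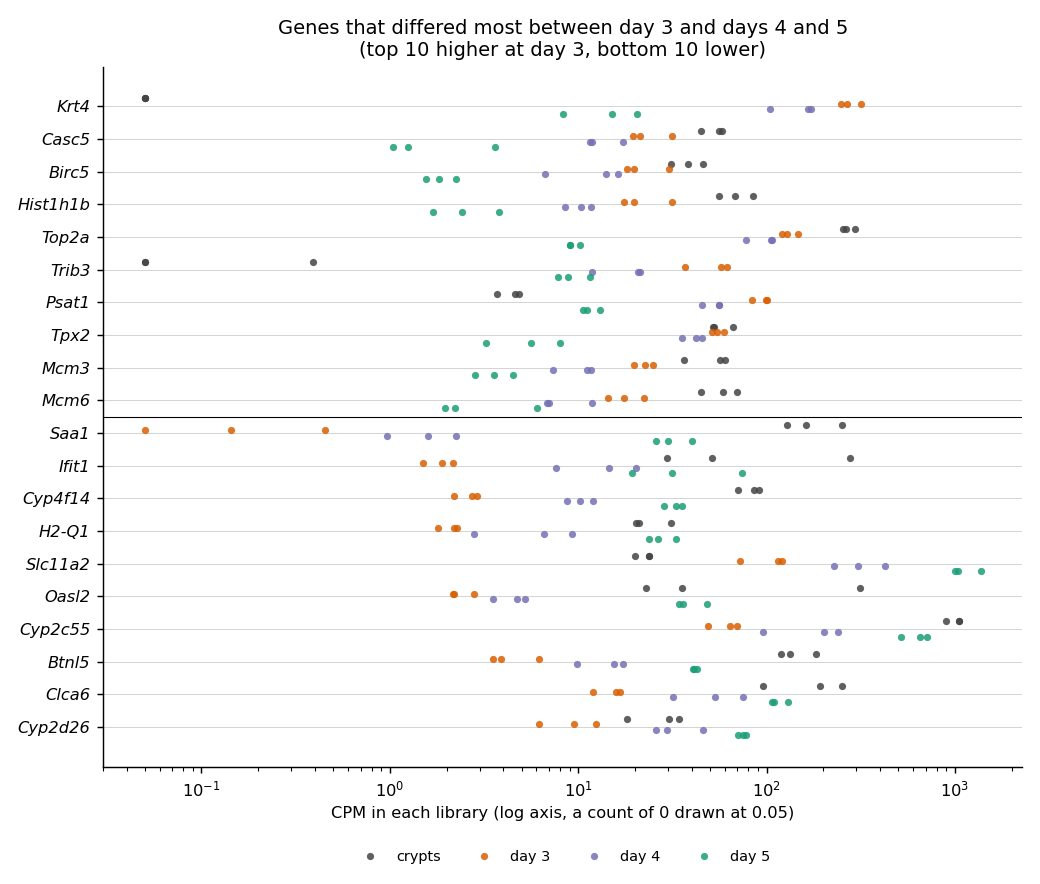
CPM in each library (x axis, log scale) of the 10 genes with the largest excess of day 3 over days 4 and 5 and the 10 with the largest deficit (y axis), with a count of 0 drawn at 0.05. Colours give crypts, day 3, day 4 and day 5. The cell cycle genes Top2a, Birc5 and Casc5 run from crypts down to day 5, Krt4, Trib3 and Psat1 are highest at day 3, and the lower 10 lie further to the right at day 5 than at day 3.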

How the data were processed

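RNA of 3 crypt and 9 monolayer libraries (3 each at days 3, 4 and 5) was sequenced. The authors deposited 1 table of raw read counts per gene symbol and library. The tools listed in the submitters' processing notes are CASAVA 1.9, TopHat2 and HTSeq, and both mm9 and mm10 are listed. The role of each build, the annotation and the strand setting were not stated, and overlapping and antisense genes cannot be told apart. The 5 summary lines of each table were left out of library sizes and tests.

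The counts of all 12 libraries were fitted together with edgeR 4.0.16 in R 4.3.3 (filterByExpr with a minimum count of 10, TMM factors, quasi-likelihood F test, Benjamini-Hochberg adjustment over 12863 genes, calls at an adjusted p under 0.05). Contrasts were day 3 minus crypts and day 3 minus the mean of days 4 and 5. Day 4 and day 5 taken singly were added after seeing the data. A fold against a group without a count is a lower bound against 3 counts pooled over the group, and one against 1 to 3 counts is a ratio with its exact 95% interval. Both cover counting error only. A gene without a count in crypts or at day 3 passed the filter through other groups alone, and list counts and medians are of tested members.

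Named genes were the 12 largest called changes each way against crypts and the 10 against the later days (mean of at least 10 CPM, no overlap of groups), up to 4 called members of each list (at least 1 CPM), and a fixed set. Some genes that this rule takes are not reported here. Others are said to have been named after their values were seen. The members, the 33 gene lists and the tests were chosen with earlier results of these data known. Alternatives were RLE factors, library totals, DESeq2 1.42.0, no filter, a replicate block, fewer groups and leaving out each library. Promoters are from RefSeq on GRCm38.p6. The test was checked on simulated counts.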

Additional observations from a re-analysis of the deposited data

How the results depend on the processing

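Against crypts, the counts of 3655 higher and 3590 lower genes stayed within 1.5 times under the alternatives, except with a 2-fold minimum (1882 and 2222). Against days 4 and 5, that minimum gave 292 higher and 180 lower, day 4 alone gave 151 and 205, and leaving out 1 library gave 570 to 1111 higher and 469 to 1010 lower. With the replicate block the counts were 3608, 3452, 926 and 812. Libraries with the same replicate number did not deviate together (r of -0.0336 to 0.028), so the numbers were not taken to pair them. Among named genes the direction against crypts turned for Mybl2 (-0.07 with library totals) and Cdh1 (-0.01 with RLE factors, -0.15 with library totals, -0.01 with DESeq2), neither called. Leaving out 1 library gave -0.12 to 0.08 for Tpx2, -0.66 to 0.12 for Ccnb1, -0.07 to 0.40 for Mybl2, -0.26 to 0.30 for Fbl and -0.03 to 0.10 for Cdh1. Against the later days, day 4 alone gave -0.38 for Pbk, -0.30 for Hist1h2ah and 0.53 for Muc2, and day 5 alone -0.13 for Cdh1 and 0.01 for Cdx2. Muc2 was at 0.07 with the replicate block and -0.37 to 0.83 without 1 library, and Cdh1 at -0.01 to 0.03. List medians turned to 0.02 (tight junction) and 0.04 (epithelium) with day 4 alone and to 0.06 (fatty acid oxidation) with day 5 alone. The cause of these shifts was not tested. Depth limits single genes to about 0.215 to 0.605 CPM per library.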
